A study of Mus musculus with 8 samples.

Results

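The mitotic kinases Cdk1, Aurka, Aurkb, Plk1, Plk4 and Bub1 were described in mouse neurosphere cells exposed to inhibitors of histone deacetylation and DNA methylation. Their probe sets were taken by gene name alone, from the gene that the platform annotation gives each probe set. The genes themselves were chosen with earlier results of these data known. They comprise 6 genes of 8252 that the array names singly, and 10 probe sets of 12488. Of these 10, 9 were bright enough to be tested, among 7987 tested in all. Plk1 and Bub1 each have 3 probe sets and the other genes 1. The gene's brightest probe set over all 8 arrays leads the account of that gene.

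These enzymes drive a cell through mitosis. Cdk1, bound to a B-type or A-type cyclin, starts mitosis. Aurora A builds and matures the spindle poles, Aurora B corrects faulty chromosome attachments and acts in cytokinesis, Polo-like kinase 1 acts from mitotic entry to cytokinesis, Polo-like kinase 4 licenses the duplication of centrioles, and Bub1 marks kinetochores for the spindle checkpoint. Their transcripts are low in resting cells and accumulate as cycling cells approach mitosis, under repressor and activator complexes that bind an NF-Y box and a cell cycle homology region (CHR) in many such promoters. In the embryonic forebrain they mark dividing stem and progenitor cells.

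The 4 groups were cultures exposed to both compounds (AzaC/TSA), cultures exposed to TSA alone, cultures exposed to AzaC alone, and untreated cultures. TSA is trichostatin A, an inhibitor of histone deacetylases, given at 150 nM, and AzaC is 5-aza-2'-deoxycytidine, which blocks DNA methyltransferases, given at 500 nM. Exposure lasted 2 days. Cells of every group, the untreated ones included, came from forebrains isolated one by one at embryonic day 14.5 from embryos with a transgene for bcl2, an inhibitor of apoptosis, whose promoter is not named in the labels. Each group had 2 arrays, 1 from each of 2 independent experiments, so p-values measure the spread between 2 experiments. RNA was taken from whole cultures, so fewer cells of a type and less RNA per cell cannot be told apart.

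Signals are linear intensities on arrays that share a 2%-trimmed mean of 200.1. The number of arrays limits the precision: a log2 difference between groups had a median standard error of 0.41. Array medians ran from 59.2 to 72.7, and the 2 arrays of a group correlated across probe sets with r from 0.90 to 0.92. The ratio of 5' to 3' actin control signals, a sign of RNA integrity, was 0.29 and 0.39 in AzaC/TSA cells, 0.33 and 0.378 in TSA cells, 0.471 and 0.398 in AzaC cells, and 0.427 and 0.332 in untreated cells. The neural stem cell transcription factor Sox2 (2391 to 4830) and the filament protein Nes (1049 to 3003) were bright on all 8 arrays. Of the other neural stem genes listed, Fabp7 (1063 to 10920), Notch1 (488.7 to 1124) and Hes1 (262.8 to 414) were bright as well. Pax6 (39.2 to 159.7) and Vim (21.3 to 56) were dimmer. Prom1 (4.2 to 181.2), Msi1 (10.3 to 78) and Hes5 (12.4 to 93.8) were under a signal of 20, the floor used here, on some arrays.

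Promoter sequence was available for 5 of the 6 genes, all but Aurkb, from the RefSeq table of GRCm38.p6, which gives 250 bases before and 50 after each gene's start. These stretches are shown because the kinases moved together and because the elements named above can be looked for in them. Each line gives the 120 bases before the start, 5′ to 3′ in the direction of the gene. Capitals mark CCAAT or its reverse complement ATTGG (the NF-Y box) and TTTGAA (the common form of the CHR). For genes with a CHR letter match after the start, a stretch of 30 bases around it follows, where capitals mark TTTGAA or TTCGAA (the second CHR form).
Cdk1 (chr10:69352913-69353032, minus strand): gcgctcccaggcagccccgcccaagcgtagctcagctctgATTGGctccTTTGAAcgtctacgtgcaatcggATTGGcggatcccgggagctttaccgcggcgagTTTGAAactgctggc
Aurka (chr2:172370571-172370690, minus strand): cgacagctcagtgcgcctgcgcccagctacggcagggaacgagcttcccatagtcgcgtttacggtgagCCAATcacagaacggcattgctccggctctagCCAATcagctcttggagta
Aurka after the start (chr2:172370521-172370550, minus strand): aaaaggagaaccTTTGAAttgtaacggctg
Plk1 (chr7:122159315-122159434, plus strand): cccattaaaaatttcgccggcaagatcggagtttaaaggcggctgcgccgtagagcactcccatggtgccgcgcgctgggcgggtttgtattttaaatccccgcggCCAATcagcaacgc
Plk1 after the start (chr7:122159453-122159482, plus strand): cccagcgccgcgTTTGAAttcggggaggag
Plk4 (chr3:40799831-40799950, plus strand): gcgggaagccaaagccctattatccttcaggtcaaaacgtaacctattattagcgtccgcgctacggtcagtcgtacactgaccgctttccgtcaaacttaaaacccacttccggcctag
Bub1 (chr2:127831860-127831979, minus strand): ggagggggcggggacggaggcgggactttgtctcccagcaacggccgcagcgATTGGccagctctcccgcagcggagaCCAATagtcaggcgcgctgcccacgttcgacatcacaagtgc
Bub1 after the start (chr2:127831828-127831857, minus strand): ctgcgcggggaaTTCGAAtcgccggcggcc

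CCAAT and TTTGAA were searched on both strands of the whole window of 300 bases, and TTCGAA, which reads the same on both strands, was counted once. None of these letter matches overlaps another. Cdk1 held 3 CCAAT, all on the reverse strand and 1 of them upstream of the printed stretch, with 2 TTTGAA. Aurka held 2 CCAAT and a TTTGAA 33 bases after the start, and Plk1 held 1 CCAAT and a TTTGAA 31 bases after it. Bub1 held 2 CCAAT and a TTCGAA 15 bases after the start. Plk4 held none of the 3 in this window.

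CCAAT together with either CHR form was thus present in 4 of the 5 kinase promoters, against 7.7% of all 27025 promoters in the table and 6.3% of the 6573 whose genes are on the array. CCAAT, with or without a CHR form, was in 37.9% of all promoters, TTTGAA in 18.1% and TTCGAA in 1.57%. A letter match describes the sequence and is not a measured binding site.

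**Figure D1:**
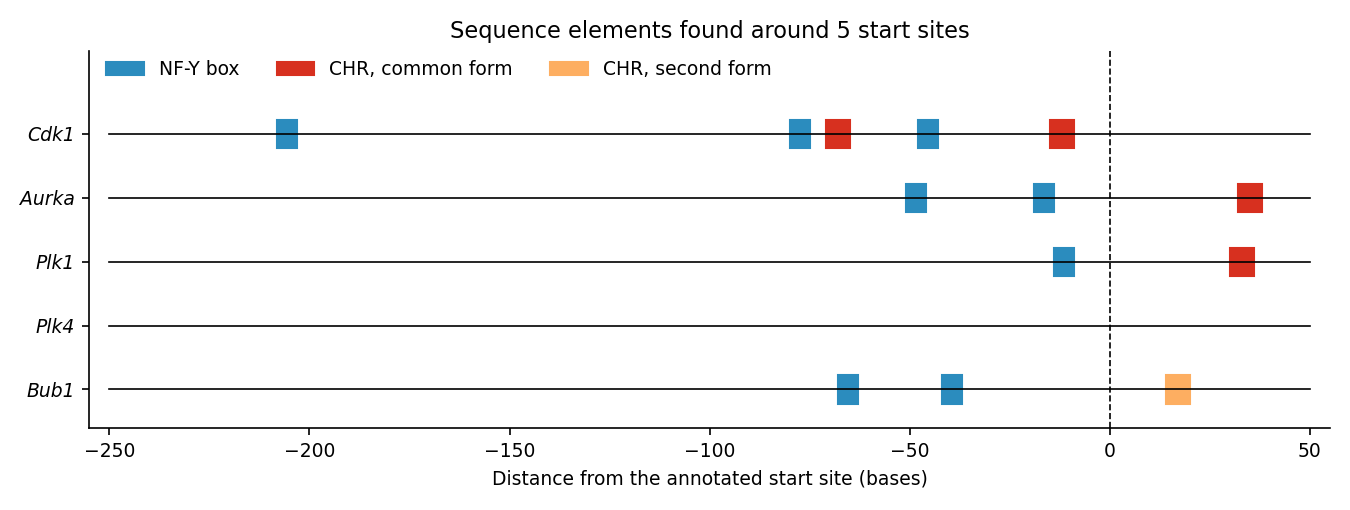
Positions of the NF-Y box (CCAAT) and of the common (TTTGAA) and second (TTCGAA) forms of the CHR in the promoter windows of the 5 kinases with an entry, against the distance from the gene's start in bases. Cdk1 has 5 letter matches, Bub1 and Aurka 3 each, Plk1 2 and Plk4 none.

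All 6 kinases were low in both groups exposed to TSA and high in both groups without it. On each of the 9 tested probe sets, the 4 arrays of TSA-exposed cells (AzaC/TSA and TSA) lay below the 4 arrays of AzaC and untreated cells, an order that 12.6% of all tested probe sets showed. Aurka, Aurkb, Plk4, Plk1 on 93099_f_at and Bub1 on 97095_at were bright enough for testing only on arrays without TSA. Testing needed a signal of 50 on 2 or more arrays. Bub1 on 104097_at reached this on a TSA array (51.9), but its next TSA-exposed array, in AzaC/TSA cells, read 35.7. It too was thus tested because of the arrays without TSA. Selection of all these probe sets by brightness favoured a lower signal with TSA. How many of all tested probe sets entered in this way was not counted. In TSA cells, 8 of the 9 tested kinase probe sets fell relative to untreated cells, and none rose, by limma at an adjusted p under 0.05. Of all tested probe sets 2.93% fell in that comparison. The same 8 fell in AzaC/TSA cells relative to untreated cells, where 1.83% of all fell, and relative to AzaC cells, where 1.68% fell. With the experiment as a block these 8 fell again in each comparison, beside 6.56%, 4.96% and 4.82% of all probe sets. None of the 9 passed in AzaC against untreated cells. Without the second untreated array 5 of the 9 passed in TSA cells and 1 in AzaC/TSA cells, both against untreated cells. With no filter on dim probe sets 4 passed in AzaC/TSA against untreated cells and 5 in AzaC/TSA against AzaC cells.

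**Figure D2:**
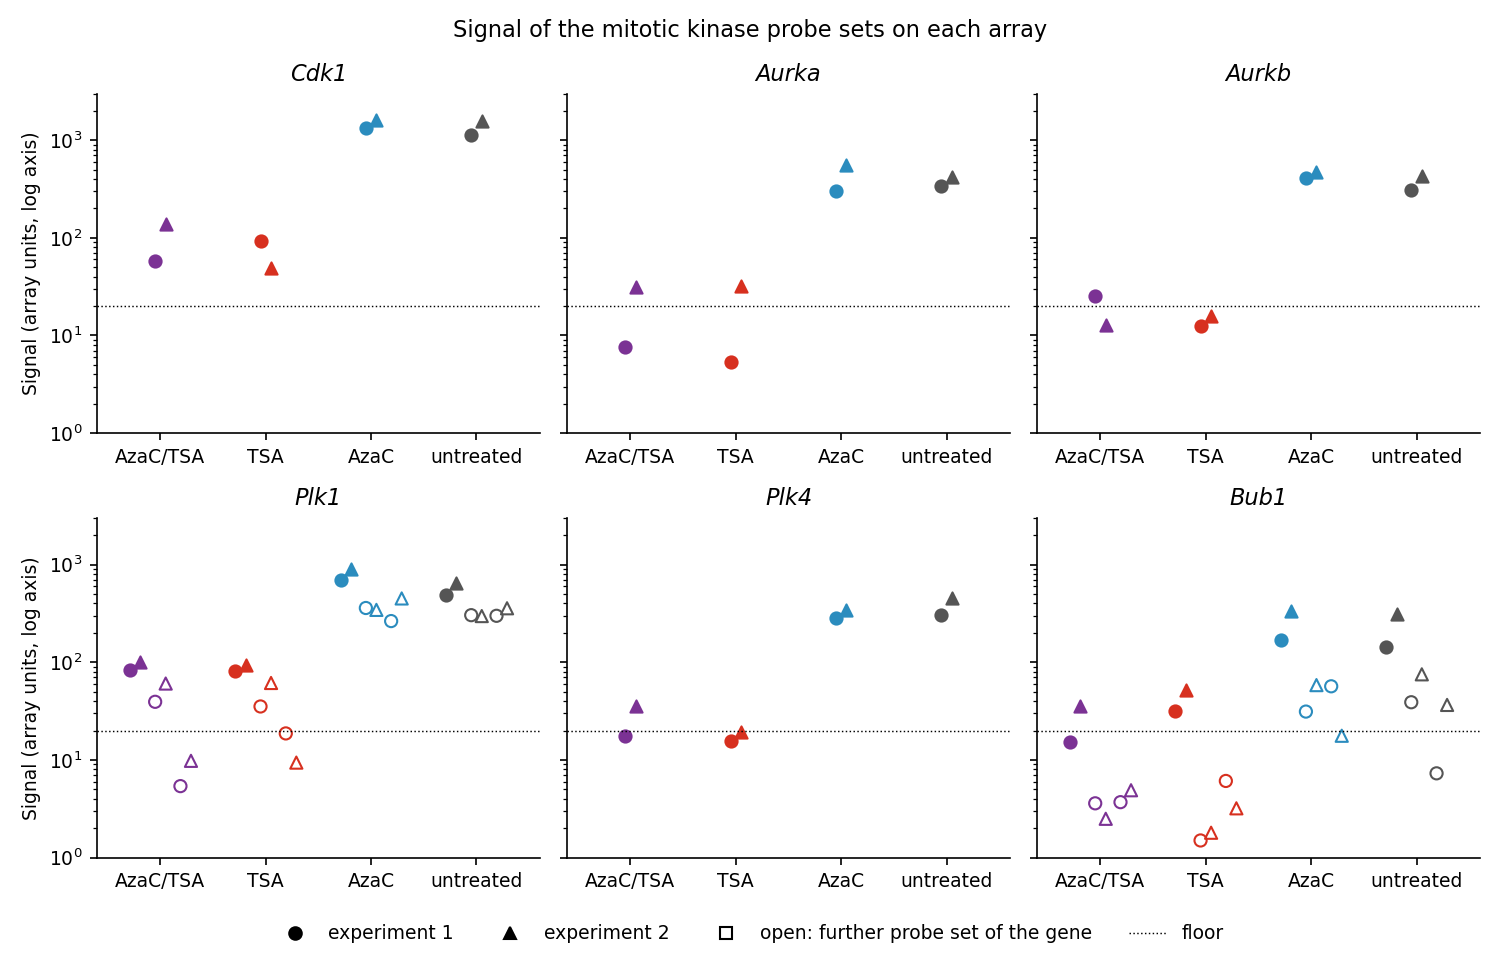
Signal of each kinase probe set on each of the 8 arrays, on a log axis, by group, with circles for experiment 1, triangles for experiment 2, open symbols for further probe sets of a gene, and a dotted line at the floor of 20. For each tested probe set the AzaC/TSA and TSA points lie below its AzaC and untreated points. Cdk1 stands at 49.6 to 136.9 with TSA and at 1128 to 1591 without.

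Cdk1, the kinase that starts mitosis, lies on chromosome 10 (69335146 to 69352912, GRCm38.p6) and was read by probe set 100128_at. Its signal was 58.3 and 136.9 in AzaC/TSA cells, 92.8 and 49.6 in TSA cells, 1317 and 1591 in AzaC cells, and 1128 and 1570 in untreated cells. The exposed arrays do not overlap the others, and every array was above the floor, so its fold changes are measured on both sides. Cdk1 fell by 4.29 on the log2 scale in TSA cells relative to untreated cells (SE 0.45, 95% interval -5.32 to -3.26, n = 2 arrays each), which is 19.6-fold lower, with a limma adjusted p of 0.002106. In AzaC/TSA cells it was 14.9-fold lower than in untreated cells (log2 -3.90, adjusted p = 0.003612) and 16.2-fold lower than in AzaC cells (log2 -4.02, adjusted p = 0.003463). AzaC cells had the highest mean, then untreated, AzaC/TSA and TSA cells. Neither the first pair nor the last pair in that order differed beyond the spread between arrays. The 2 experiments differ in which of the low groups was lower: TSA kept 8.23% of the untreated signal in experiment 1 and 3.16% in experiment 2, whereas AzaC/TSA kept 5.17% and 8.72%.

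Aurka, the Aurora kinase of the spindle poles, lies on chromosome 2 (172356190 to 172370886), and the start used for its promoter lies inside that span. Its signal on 92639_at was 7.6 and 31.1 in AzaC/TSA cells, 5.3 and 32.1 in TSA cells, 297.8 and 552.4 in AzaC cells, and 339.3 and 420.5 in untreated cells. The array of experiment 1 was under the floor of 20 in both TSA-exposed groups, so the change is a lower bound of its size. Aurka was at least 14.9-fold lower in TSA cells (log2 -3.90, SE 0.45, adjusted p = 0.002958) and at least 15.1-fold lower in AzaC/TSA cells (log2 -3.92, adjusted p = 0.003612) than in untreated cells. Relative to AzaC cells, AzaC/TSA cells were at least 16.3-fold lower (log2 -4.02, adjusted p = 0.003463). The AzaC and untreated arrays overlap. Without the second untreated array, the change in TSA cells missed the threshold, with an adjusted p of 0.05063.

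Aurkb, the Aurora kinase of the chromosomal passenger complex, lies on chromosome 11 (69045624 to 69051664). Its signal on 98469_at was 25.2 and 12.7 in AzaC/TSA cells, 12.6 and 15.8 in TSA cells, 408.8 and 473.2 in AzaC cells, and 310.3 and 427.9 in untreated cells. Both TSA arrays and 1 AzaC/TSA array were under the floor. The fall was at least 18.2-fold in TSA cells relative to untreated cells (log2 -4.19, SE 0.37, adjusted p = 0.001162) and at least 16.2-fold in AzaC/TSA cells (log2 -4.02, adjusted p = 0.001502). AzaC/TSA cells were at least 19.6-fold lower than AzaC cells (log2 -4.29, adjusted p = 0.001014). AzaC lay above untreated within each experiment, but the 2 groups' arrays overlap.

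Plk1, the Polo-like kinase that acts throughout mitosis, lies on chromosome 7 (122159435 to 122169884) and was read by 3 probe sets. On the brightest, 101350_g_at, its signal was 83.9 and 100.6 in AzaC/TSA cells, 81.3 and 94.8 in TSA cells, 692.7 and 900.5 in AzaC cells, and 489.9 and 642.2 in untreated cells. All 8 arrays were above the floor, and the 2 low groups had nearly the same signal. Plk1 was 6.39-fold lower in TSA cells (log2 -2.68, SE 0.30, adjusted p = 0.002726) and 6.11-fold lower in AzaC/TSA cells (log2 -2.61, adjusted p = 0.003612) than in untreated cells, and 8.60-fold lower in AzaC/TSA cells than in AzaC cells (log2 -3.10, adjusted p = 0.002094). The experiments were close to each other here: TSA left 16.6% of the untreated signal in experiment 1 and 14.8% in experiment 2, and AzaC/TSA left 17.1% and 15.7%.

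The other Plk1 probe sets gave the same direction and different sizes. On 161292_f_at the signal was 39.4 and 60.6 in AzaC/TSA cells, 35.3 and 61.4 in TSA cells, 359.6 and 343.9 in AzaC cells, and 303.7 and 297.3 in untreated cells. The fall in TSA cells relative to untreated cells was 6.45-fold there (log2 -2.69, SE 0.39, adjusted p = 0.008784), close to the brightest probe set. The third, 93099_f_at, read 5.4 and 9.8 in AzaC/TSA cells, 18.7 and 9.4 in TSA cells, 264.2 and 450.4 in AzaC cells, and 299.2 and 357.3 in untreated cells. All 4 TSA-exposed arrays were under the floor on it, and its fall in TSA cells was at least 16.3-fold (log2 -4.03, SE 0.40, adjusted p = 0.001672). By the array maker's naming, probe sets marked f can share sequence with other transcripts, so the sizes on these are uncertain. The brightest Plk1 probe set carries the suffix g, and whether it reads Plk1 alone was not tested.

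Plk4, the kinase of centriole duplication, lies on chromosome 3 (40799951 to 40816883). Its signal on 98996_at was 17.5 and 35.6 in AzaC/TSA cells, 15.6 and 19.4 in TSA cells, 284.5 and 339.1 in AzaC cells, and 304.8 and 456.7 in untreated cells. Both TSA arrays were under the floor. Plk4 was at least 18.6-fold lower in TSA cells (log2 -4.22, SE 0.42, adjusted p = 0.001672) and at least 14.0-fold lower in AzaC/TSA cells (log2 -3.81, adjusted p = 0.003612) than in untreated cells, and at least 11.6-fold lower in AzaC/TSA cells than in AzaC cells (log2 -3.54, adjusted p = 0.005037). Its promoter window, printed above, holds none of the letters searched. Whether these elements bear on the fall of any of the kinases was not tested. Plk4 was the only one of the 6 leading probe sets with the AzaC signal below the untreated signal in both experiments, and these arrays overlap.

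Bub1, the kinetochore kinase of the spindle checkpoint, lies on chromosome 2 (127800197 to 127831859) and had the smallest change among the 6 leading probe sets in TSA cells. On its brightest probe set, 104097_at, the signal was 15.3 and 35.7 in AzaC/TSA cells, 31.9 and 51.9 in TSA cells, 167.2 and 335.9 in AzaC cells, and 144.3 and 315.5 in untreated cells. Experiment 2 was brighter in every group, and this spread is wide relative to the other kinases. Bub1 was 5.24-fold lower in TSA cells than in untreated cells (log2 -2.39, SE 0.56, 95% interval -3.66 to -1.12, adjusted p = 0.04539), and the adjusted p was 0.003134 with the experiment as a block. This call passed in 10 of the 20 other settings tried, and the lost ones include leaving out either untreated array (adjusted p = 0.07602 without the first and 0.2847 without the second) or either TSA array (0.2051 and 0.1281). AzaC/TSA cells were at least 7.98-fold lower than untreated cells (log2 -3.00, adjusted p = 0.02554) and at least 8.87-fold lower than AzaC cells (log2 -3.15, adjusted p = 0.02541).

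The other Bub1 probe sets were dim. On 97095_at the signal was 3.6 and 2.5 in AzaC/TSA cells, 1.5 and 1.8 in TSA cells, 31.3 and 58.4 in AzaC cells, and 39.0 and 75.3 in untreated cells. Every TSA-exposed array was under the floor, and the lower bound of the fall in TSA cells, a log2 change of -1.44 (SE 0.60), did not pass (adjusted p = 0.2157). The third, 162264_s_at, had only 1 array at the filter signal of 50 and was not tested: it read 3.7 and 4.9 in AzaC/TSA cells, 6.1 and 3.2 in TSA cells, 56.8 and 17.7 in AzaC cells, and 7.3 and 36.6 in untreated cells. On it 6 of the 8 arrays were under the floor, so no order of the groups was read from it.

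**Figure D3:**
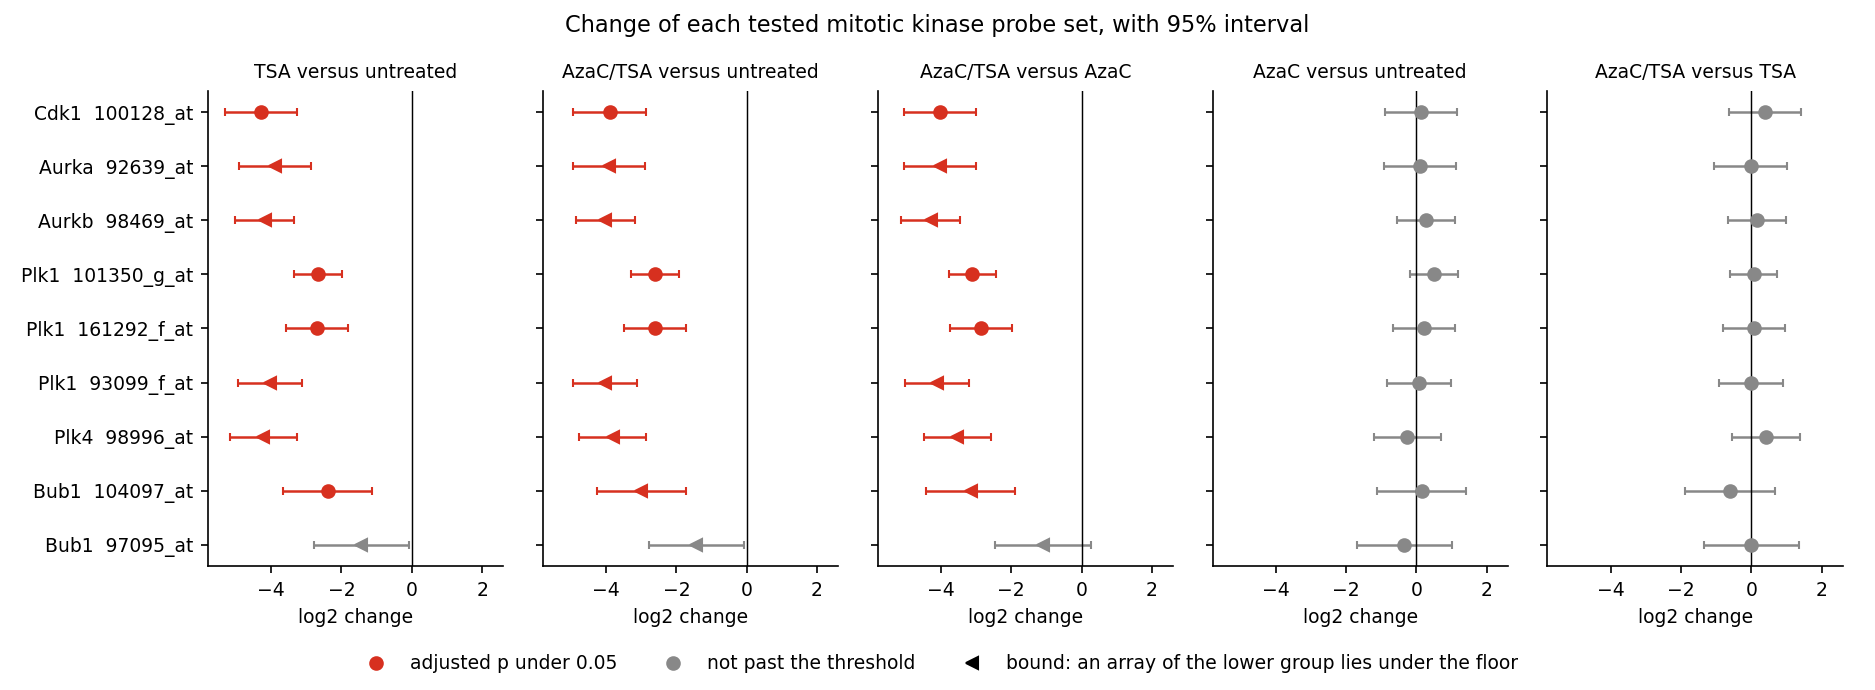
Log2 change of the 9 tested kinase probe sets with 95% intervals from limma, in the comparisons of the design. In the comparisons that add TSA, 8 of the 9 lie below 0 and pass the threshold, and in the comparisons that add AzaC every interval includes 0. Triangles are lower bounds of a fall, and the points of 93099_f_at and 97095_at in AzaC/TSA against TSA cells carry no information, as both groups were under the floor.

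No change of the 6 kinases was detected with AzaC alone. None of the 9 probe sets passed in AzaC against untreated cells (limma adjusted p of 1 for each), and 0% of all 7987 did. At an unadjusted p under 0.05, 175 of all probe sets and none of the kinase ones passed. The intervals show what the arrays could have missed: the AzaC change was 0.12 for Cdk1 (95% interval -0.91 to 1.15), 0.10 for Aurka (-0.93 to 1.13), 0.27 for Aurkb (-0.56 to 1.10), -0.26 for Plk4 (-1.22 to 0.69) and 0.15 for Bub1 (-1.12 to 1.42), all on the log2 scale. Plk1 on 101350_g_at had the largest of these, 0.49 (-0.18 to 1.17, unadjusted p = 0.134). On it and on 161292_f_at both AzaC arrays were above both untreated arrays, which 15.4% of all tested probe sets showed.

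Nor was a change detected where AzaC was added to TSA. In AzaC/TSA against TSA cells none of the 9 passed (adjusted p of 1 for each), 0% of all probe sets did, and 185 of all and none of the kinase ones had an unadjusted p under 0.05. For the probe sets above the floor on every array of both groups, the log2 differences were 0.40 for Cdk1 (95% interval -0.63 to 1.43), and for Plk1 0.07 on 101350_g_at (-0.61 to 0.74) and 0.07 on 161292_f_at (-0.81 to 0.95). Both groups were under the floor on 93099_f_at and 97095_at, which allows no difference to be read. The interaction of the compounds, tested directly, was called for 0% of all probe sets and none of the kinases, with 0.28 for Cdk1 (-1.18 to 1.73) and -0.43 for Plk1 (-1.39 to 0.53). With 2 arrays a group, interactions inside these intervals remain possible, and the intervals are not a limit of detection at the adjusted threshold.

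Across the 2 experiments, all 6 leading probe sets were brighter in experiment 2 in AzaC and in untreated cells, where 50.1% and 47.5% of all tested probe sets were. In AzaC/TSA cells all but Aurkb were brighter in experiment 2, and in TSA cells all but Cdk1, against 52.8% and 53% of all; both TSA arrays of Aurkb and of Plk4 were under the floor. Fitted over the 4 groups, the difference between experiments was largest for Bub1 (log2 0.92, SE 0.25, limma adjusted p = 0.0768) and Aurka (0.63, adjusted p = 0.1857). None of the 9 passed, and 4.22% of all probe sets did.

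Other kinases of mitosis and mitotic entry passed in part. Of 22 such genes listed, 14 are on the array and 11 were tested. In TSA against untreated cells 3 fell and none rose, with a median log2 change of -0.9998, where 3.34% of all 6011 tested genes fell and their median was 0.02. The 3 were Vrk1, a kinase of chromatin and the nuclear envelope (at least 6.78-fold, log2 -2.76, adjusted p = 0.0165), Ttk, the checkpoint kinase Mps1 (log2 -2.92 or beyond, adjusted p = 0.01656), and Nek2, a centrosome kinase (log2 -2.58, adjusted p = 0.0402). Nek2 had 29.8 and 76.3 in TSA cells against 228.8 and 356.1 in untreated cells. Among those that did not pass, the checkpoint kinase Chek1 had -1.44 and Wee1, which inhibits Cdk1, had -0.63. In AzaC/TSA against untreated cells 2 of the 11 fell, Vrk1 and Ttk, and 4 did with the experiment as a block, Nek2 and Chek1 being the others. Of all tested genes 2.06% fell in that comparison. With the block, 6.56% of all tested probe sets fell in TSA and 4.96% in AzaC/TSA against untreated cells. These shares also stand beside the counts of the lists below.

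Relatives of these kinases outside mitosis gave other values. None of the 10 other cyclin-dependent kinases tested passed in TSA against untreated cells, and their median log2 change was -0.01. Cdk2, the S phase kinase nearest to Cdk1 in sequence and function, had 199.7 and 196.7 in TSA cells against 221.1 and 304.8 in untreated cells, a log2 change of -0.39. The G1 kinase Cdk4 had -0.88 (adjusted p = 0.1547). With the experiment as a block Cdk4 passed as lower in TSA cells (adjusted p = 0.02545), and in AzaC/TSA cells Cdk2 and Cdk4 passed as lower and Cdk9, a transcription kinase, as higher. Of the other Polo-like kinases, the stress-responsive Plk2 had 2489 and 2478 in TSA cells against 1185 and 1368 in untreated cells (log2 0.96, adjusted p = 0.2884), and Plk3 had -0.03.

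The next list held mitotic cyclins and Cks subunits. A-type and B-type cyclins activate Cdk1, Cks subunits are small proteins that bind it, and Ccnf has a cyclin fold but works in a ubiquitin ligase. All 5 tested members of this list fell in TSA against untreated cells, with a median log2 change of -2.27. Ccnb2, the B-type cyclin partner of Cdk1, had 61.9 and 108 in TSA cells against 580.4 and 630 in untreated cells (log2 -2.89, adjusted p = 0.002731). Ccna2, which pairs with Cdk2 and Cdk1, fell by 3.24 (adjusted p = 0.007261), Ccnf fell by 2.21, and Cks1b and Cks2 each fell by 2.27. The same 5 fell in AzaC/TSA cells, with a median of -2.59. The E-type cyclins of S phase entry, counted with the replication genes, did not pass in TSA cells: Ccne1 had -0.22 (adjusted p = 0.7457) and Ccne2 -1.38 or beyond (adjusted p = 0.2017).

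Among 10 tested activators and scaffolds, 6 fell in TSA against untreated cells and none rose, with a median of -2.56. Birc5 and Cdca8, partners of Aurora B in the passenger complex, had log2 changes of -3.94 or beyond (adjusted p = 0.002359) and -2.70. Cdc25c, the phosphatase that activates Cdk1, had -3.01 (adjusted p = 0.007261), Tacc3, a spindle partner of Aurora A, -3.23 or beyond, and Stil, a centriole partner of Plk4, -2.43 or beyond. The passenger scaffold Incenp had -2.96 or beyond on its brighter probe set (adjusted p = 0.02108) and -0.40 on the other (adjusted p = 0.7126). Bub3, the partner of Bub1, had -0.77 and did not pass (limma adjusted p = 0.1934), but passed with the experiment as a block (0.04212). In AzaC/TSA cells 5 of the 10 fell.

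Inhibitors of the cyclin-dependent kinases and of their activation were higher in TSA than in untreated cells, except Cdkn3 and Wee1. None of the 8 tested passed in that comparison, and the median log2 change was 0.52. Cdkn1a (p21), which binds and blocks cyclin-dependent kinases, had 2170 and 1174 in TSA cells against 1121 and 769.9 in untreated cells, a log2 change of 0.78 with an adjusted p of 0.3374. Cdkn3, a phosphatase that acts on cyclin-dependent kinases, had -1.83 (adjusted p = 0.05294), which passed with the experiment as a block (0.01166). In AzaC/TSA against untreated cells Cdkn3 fell by at least 3.12 (adjusted p = 0.009966), alone among the 8, and with the block Cdkn1a also passed, as higher (log2 1.01, adjusted p = 0.03659).

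Next were genes whose proteins the kinases act on, or which carry out mitosis with them. Of 31 tested, 19 fell and none rose in TSA against untreated cells, with a median log2 change of -2.30, and 17 fell in AzaC/TSA cells. Mki67, the proliferation antigen that coats mitotic chromosomes, had 1.1 and 28.4 in TSA cells against 883 and 1226 in untreated cells, a fall of at least 5.45 on the log2 scale. Top2a, which untangles sister chromatids, had -5.00 or beyond. The kinesins Kif20a and Kif11 had -4.60 and -4.17 (the second a bound), and Smc4, a condensin subunit, had -2.75 (adjusted p = 0.002731).

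Mitosis ends when the anaphase-promoting complex marks its regulators for destruction. Of 13 tested genes of this complex and its partners, 3 fell and none rose in TSA against untreated cells, with a median of -0.64. The complex's activator Cdc20 had 79 and 96 in TSA cells against 1728 and 2726 in untreated cells, a log2 change of -4.64. Cdc20 and Cdc16 also belong to the preceding list, so the fall of Cdc20 is counted in both. The core subunits Anapc5 and Anapc11 had -1.16 and -1.28. The ubiquitin-conjugating enzyme Ube2c had -1.58 or beyond and did not pass. Ube2s had -1.54 and passed only with the experiment as a block (limma adjusted p = 0.03728). In AzaC/TSA against untreated cells Cdc20 and Anapc5 fell, and with the experiment as a block Anapc11, Ube2s and Pttg1 did as well.

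Factors that control transcription of mitotic genes mostly did not pass. Of 17 tested, 2 fell in TSA against untreated cells, and 4 did with the experiment as a block, with Tfdp1 and Lin9 as the others. E2f8, a repressor of the E2F family, had -1.77 (adjusted p = 0.04076) and Rbl1 (p107), a pocket protein of the complexes that bind the CHR, had -1.58 (adjusted p = 0.04211). The activator Mybl2 had -1.82 or beyond (adjusted p = 0.1934). Foxm1, an activator of late cell cycle genes, had -0.48 on its brighter probe set (adjusted p = 0.7238) and 6.4 and 6.5 in TSA cells against 133.9 and 99.7 in untreated cells on the other, which passed (log2 -2.53 or beyond, adjusted p = 0.0265).

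Genes of DNA replication, which act before mitosis, were also counted. Of 15 tested S phase genes, 7 fell and none rose in TSA against untreated cells, with a median log2 change of -2.30, and 13 fell with the experiment as a block. In AzaC/TSA cells 8 fell, where 2.06% of all tested genes did, and 13 with the block. The block raised the share over all tested probe sets as well, to 6.56% in TSA and 4.96% in AzaC/TSA against untreated cells. Examples are Mcm5, a helicase subunit (log2 -4.31), Rrm2 and Rrm1, subunits of ribonucleotide reductase (-3.36 and -2.85), and the thymidine kinase Tk1 (-3.04). In AzaC against untreated cells, 0 genes of any of these lists passed.

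**Figure D4:**
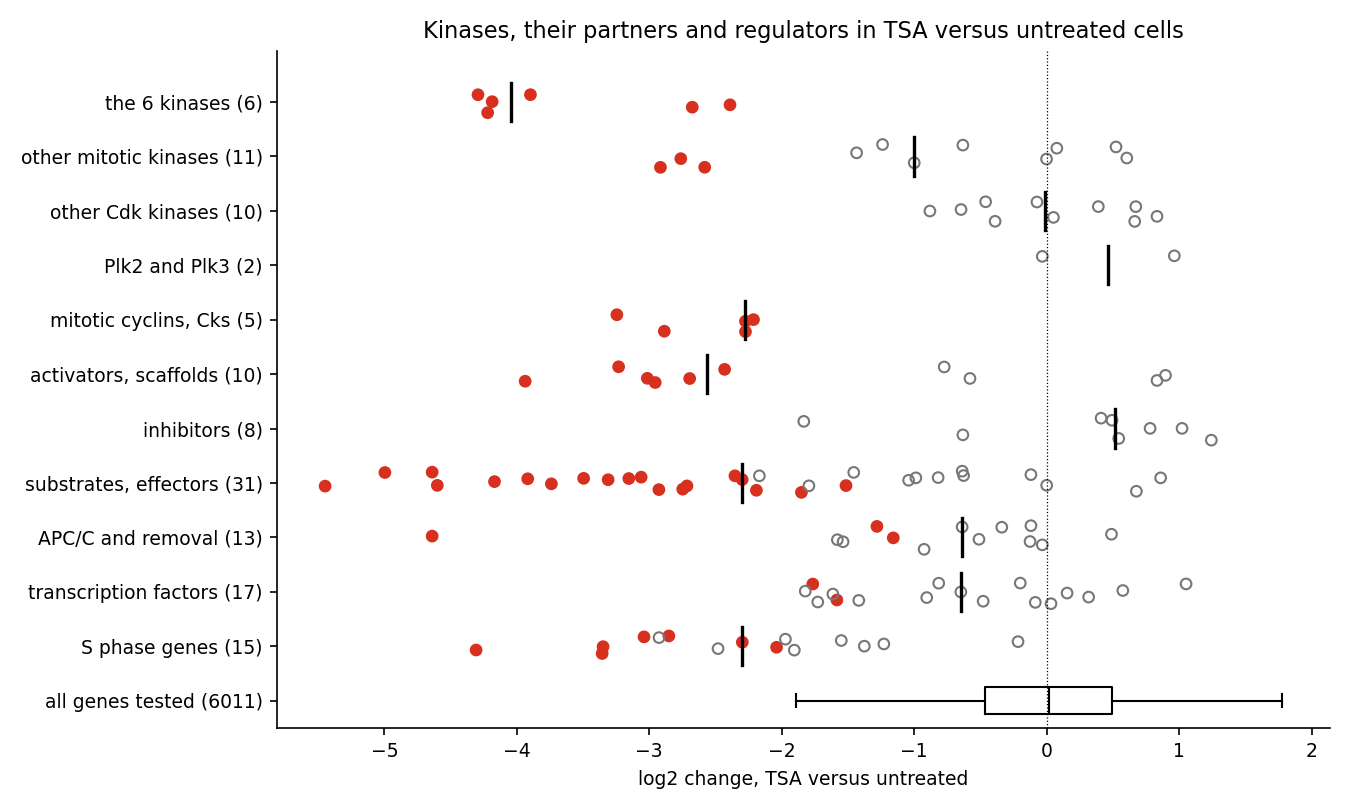
Log2 change of each tested gene in TSA against untreated cells, by list, with a bar at the median of each list and a box plot of all 6011 genes (median, quartiles, and whiskers around the middle 95% of genes); filled points passed the threshold. The medians lie at -2.30 for substrates, -2.56 for activators, -2.27 for mitotic cyclins and Cks subunits, -0.01 for the other cyclin-dependent kinases and 0.52 for inhibitors.

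Markers of other cells were set beside these results. The neural stem list had 8 tested genes, of which 1, Fabp7, which radial glia make, fell in TSA cells (log2 -2.63). Its summed signal ran from 10040 to 14200 in AzaC/TSA cells, 6422 to 8565 in TSA cells, 15190 to 17480 in AzaC cells and 16210 to 17780 in untreated cells. Without Fabp7 the sum was 7005 to 8701 in AzaC/TSA cells, 5359 to 6068 in TSA cells, 6912 to 7361 in AzaC cells and 6864 to 6898 in untreated cells. Of 8 tested neuron genes 3 rose in TSA cells (Snap25, Syp and Mapt), where 2.33% of all tested genes rose, and the list's summed signal was 2669 to 3525, 2597 to 3047, 2534 to 3350 and 2516 to 2615 in the same order of groups. Snap25 had 615.4 and 252 in TSA cells against 4.3 and 19.6 in untreated cells. Another gene of that list, the neuronal tubulin Tubb3, had 1107 and 1057 in TSA cells against 1836 and 1959 in untreated cells and did not pass (log2 -0.81, adjusted p = 0.1884). Of 3 tested microglia and macrophage genes, Cd68 rose, and the list summed to 286.1 to 570.6, 407.7 to 618.9, 175.1 to 383.2 and 184.7 to 335.9. The defining microglia genes Aif1 and Itgam, and the blood cell gene Ptprc, were under the floor on all 8 arrays. Of 3 tested astrocyte genes 1 fell, and none of the tested blood, oligodendrocyte, endothelial or fibroblast genes passed. The part of these markers in the kinase result was not tested.

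Over the 8 arrays the 6 leading probe sets followed nearly the same profile. Their 15 pairs correlated with r from 0.93 to 0.99 and a median of 0.98, as a description of 8 arrays that fall into a high and a low cluster. By correlation with the mean profile of the 6 kinases, the 10 most alike of 6005 other genes were Top2a, Cdc25c, Cdc20, Kif20a, Rbmxl1, Pclaf, Tacc3, Birc5, Psmc3ip and Smc2, with r from 0.998 to 0.993. Rbmxl1, an RNA binding protein gene, had the same shape over a smaller range, with a log2 change of -1.29 in TSA cells. Single kinases had other neighbours: Trim59, Mcm4 and Chaf1b were most like Bub1, and Cdc25c, Anln and Ccnf most like Aurka.

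**Figure D5:**
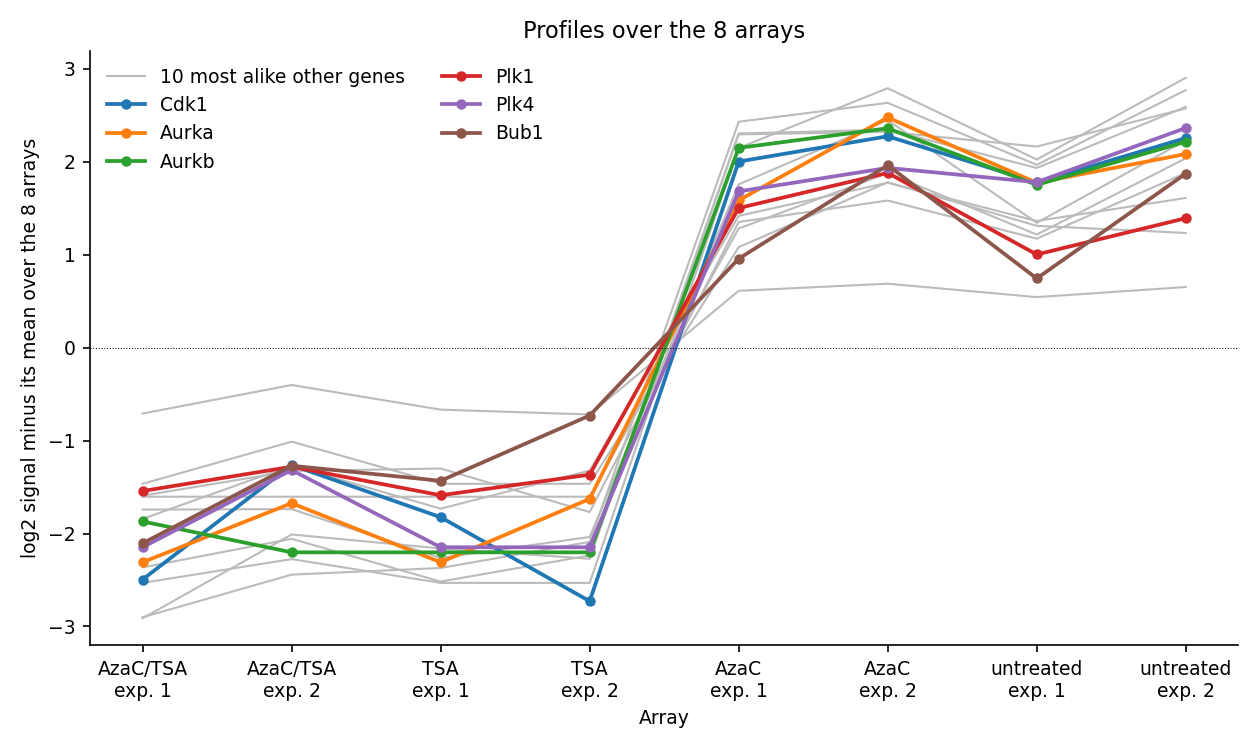
Log2 signal on each of the 8 arrays, centred on each gene's mean, for the 6 kinases and for the 10 genes most like their mean profile; lines join the arrays of a gene and have no order in time. AzaC/TSA and TSA arrays lie low and AzaC and untreated arrays high for every gene shown.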

How the data were processed

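Neurosphere RNA was measured on 8 arrays with Affymetrix-type probe set names, 2 per group. The deposited values are linear intensities, 1 per probe set and array, scaled by the authors to a shared 2%-trimmed mean of 200.1, as the values show; the software behind them is not given in the sources used here. Names came from the platform annotation, updated by gene identifier, and promoters from the RefSeq table of GRCm38.p6. The members and lists were chosen with earlier results of these data known.

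The 66 control probe sets were left out. Values under 10% of the trimmed mean (20) were raised to that floor and log2-transformed, so a change whose lower group has an array under it is a lower bound. Probe sets with 2 or more arrays at 25% of the trimmed mean (50) were tested, 7987 in all. limma 3.58.1 in R 4.3.3 fitted 4 group means over all 8 arrays (lmFit, eBayes with an intensity trend, 4 residual degrees of freedom, prior 4.93), two-sided, with Benjamini-Hochberg adjustment over all probe sets and a threshold of 0.05. For lists, 1 probe set per gene was used, the brightest over all arrays. Some genes, such as Cdc20, Cdc16, Cdk7 and Wee1, stand in more than 1 list, so the counts of the lists are not independent. Up to 6 genes of a list were named in order of unadjusted p in TSA against untreated cells; further list genes, second probe sets and calls gained with the block were named after their values were seen.

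The titles number the experiments, and the deviations of same-numbered arrays from their group means correlated in every pair of groups (r 0.203 to 0.411), so the number pairs the arrays; the experiment as a block was an alternative. Others changed scaling, floor, filter, variance model and arrays used, 1 at a time. The fit was tested on simulated data.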

Additional observations from a re-analysis of the deposited data

How the results depend on the processing

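Of the 9 kinase probe sets, 8 passed in each comparison that adds TSA, and 8 passed also with the experiment as a replicate block, which changed no call among them. Over the 20 alternatives no change reversed its sign in the 3 comparisons that add TSA. In AzaC against untreated cells, AzaC/TSA against TSA cells and the interaction, where none passed, values near 0 changed sign in places, as for Cdk1 in AzaC/TSA against TSA cells (-0.22 to 1.01). Cdk1, Aurkb, Plk4 and the Plk1 probe sets 101350_g_at and 93099_f_at passed under all 20 in TSA against untreated cells. With no filter on low signal 4 passed in AzaC/TSA against untreated cells and 5 in AzaC/TSA against AzaC cells, and the cause was not tested. Leaving out 1 array gave 5 to 8 in TSA against untreated, 1 to 8 in AzaC/TSA against untreated and 6 to 8 in AzaC/TSA against AzaC. The lowest of the first 2 came without the second untreated array. Then Aurka, Bub1 and Plk1 on 161292_f_at were lost in TSA cells, and Aurkb alone passed in AzaC/TSA cells (adjusted p = 0.04445). That array's group is then 1 array, assumed to vary like the others, and the cause was not tested. Without it the log2 changes in AzaC/TSA against untreated cells were -3.66 for Cdk1, -3.77 for Aurka and -3.51 for Plk4. Plk1 on 101350_g_at had -2.415 and Bub1 on 104097_at -2.433. With all arrays these were, in that order, -3.896, -3.92, -3.805, -2.61 and -2.997. Over all probe sets the block raised the calls from 401 to 971 in TSA, 249 to 746 in AzaC/TSA against untreated and 223 to 744 in AzaC/TSA against AzaC cells. Signals under the floor of 20 limit the sizes of the changes of Aurka, Aurkb, Plk4 and Bub1.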

Other observations

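Probe sets of 1 gene did not always agree. Foxm1 and Incenp each had a brighter probe set and a second one with different changes in TSA against untreated cells: -0.48 and -2.53 for Foxm1, where the second is a bound, and -2.96, a bound, and -0.40 for Incenp. The Plk1 probe sets ran from -2.68 to -4.03, the last a bound with all 4 TSA-exposed arrays under the floor. Which of the probe sets reads the full transcript was not tested.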
